A study of Mus musculus with 4 samples.

Results

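Cytosolic ribosomal proteins are the protein part of the ribosome that translates nuclear mRNA. Protein-coding genes whose symbol starts with Rpl (large subunit) or Rps (small subunit) followed by a digit were taken, with Rplp0, Rplp1, Rplp2 and Rpsa and without the Rps6k kinases. This rule gave 91 genes of the 38282 listed, 56 of the large and 35 of the small subunit. It also takes in a few genes that are named after a ribosomal protein without being one, such as Rps19bp1. The cells were naive CD4+ T cells from the spleen of C57BL/6 mice, kept in culture under the Th0 condition with dopamine (Th0+Dopa, 2 libraries) or without it (Th0, 2 libraries) and harvested on day 4. Th0 commonly means activation in the absence of cytokines that direct a lineage. The libraries carry the numbers 2 and 3, and those with the same number share a deposited table. The labels give neither the dose of dopamine nor whether each library had a culture or animal of its own. The p-values therefore reflect only how these 4 samples vary, and that variation may be technical.

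A ribosome holds a single copy of nearly every one of these proteins, with the P1 and P2 proteins of the stalk as an exception, and proliferating T cells make large numbers of ribosomes after activation. The genes are spread over the genome, and their mRNAs are among the most abundant of a growing cell. Most begin with a tract of pyrimidines, the 5′ terminal oligopyrimidine tract, through which the kinase mTOR and the binding protein LARP1 control their translation. Free ribosomal proteins that find no ribosome are degraded.

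RefSeq start sites were matched for 65 of the 91 genes (77 sites, build GRCm38.p6). The windows of 40 bases before and 20 bases after the start are shown, because a pyrimidine tract is the family's best known sequence feature. They cover the 5 largest rises with a start in RefSeq and 6 of the 7 tested members with a negative difference. No window was drawn for Rpl23a, the remaining one. Where RefSeq gives several starts, the one with the lowest coordinate was taken. For Rpl22, which has 2, the window shown lies wholly before the gene as GENCODE places it (152325742 to 152334071). Capitals mark the longest run of C and T in each window. These runs, and those counted below, could lie anywhere in the window and need not begin at the start, as a 5′ terminal tract does. In Rpl13, for example, the run begins 16 bases before the start, and in Rps13 at base 13 after it. The first 5 belong to genes that were higher with dopamine.
Rpl22l1 (chr3:28805468-28805527, + strand): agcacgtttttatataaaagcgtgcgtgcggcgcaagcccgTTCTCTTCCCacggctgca
Rps21 (chr2:180257339-180257398, + strand): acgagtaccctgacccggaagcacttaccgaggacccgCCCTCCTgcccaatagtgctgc
Rplp2 (chr7:141447611-141447670, + strand): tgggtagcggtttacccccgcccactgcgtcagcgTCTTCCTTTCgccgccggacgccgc
Rpl13 (chr8:123102310-123102369, + strand): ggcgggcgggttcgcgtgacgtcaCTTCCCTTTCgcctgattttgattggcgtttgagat
Rps13 (chr7:116334171-116334230, - strand): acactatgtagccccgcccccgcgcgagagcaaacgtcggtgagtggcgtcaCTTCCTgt
The next 6 belong to genes at the low end.
Rpl22 (chr4:152324396-152324455, + strand): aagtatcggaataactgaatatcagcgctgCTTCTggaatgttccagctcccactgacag
Rps2 (chr17:24720023-24720082, + strand): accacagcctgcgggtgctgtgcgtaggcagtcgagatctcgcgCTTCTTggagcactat
Rpl35 (chr2:39005112-39005171, - strand): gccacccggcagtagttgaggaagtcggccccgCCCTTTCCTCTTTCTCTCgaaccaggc
Rpl23 (chr11:97782420-97782479, - strand): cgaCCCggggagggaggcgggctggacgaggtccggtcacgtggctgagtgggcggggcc
Rps16 (chr7:28350649-28350708, + strand): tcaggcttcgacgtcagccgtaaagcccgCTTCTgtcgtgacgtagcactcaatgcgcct
Rps24 (chr14:24490638-24490697, + strand): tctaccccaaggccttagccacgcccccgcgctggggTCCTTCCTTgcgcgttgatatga
The longest run had 6 to 10 bases in the 5 genes that rose and 3 to 18 bases in the 6 at the low end, with the shortest in Rpl23 and the longest in Rpl35. A run of at least 8 bases on the sense strand was found in 50.6% of the 77 windows, against 24.2% of the 32851 windows of all genes. The share was 60.9% of 23 windows of genes that passed the test below and 49% of 51 windows of those that did not. Among motifs searched on both strands of the region 250 bases before to 50 bases after the start, CCGGAAG was in 35.1% of the members' regions and 8.86% of all regions, AAGATGGC in 10.4% and 2.75%, GGGCGG in 61% and 35.7%, CACGTG in 10.4% and 7.15%, and TATAAA in 9.09% and 13.6%. GGGCGG was in 78.3% of the 23 regions of genes that passed and in 54.9% of the 51 of tested genes that did not. For the other motifs these shares were 34.8% and 37.3% (CCGGAAG), 13% and 9.8% (AAGATGGC), 8.7% and 11.8% (CACGTG), and 4.35% and 11.8% (TATAAA). The 23 regions belong to 18 genes, and these splits were not tested. Overlaps between motifs were not removed, and a match is no evidence of binding.

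With dopamine, ribosomal protein mRNAs were on the whole more abundant, and unequally so. Of the 91 genes, 84 had a mean of at least 1 FPKM and were tested. Of these, 26 rose (31.0%) and 0 fell in limma with the table as a block, at an adjusted p under 0.05. Over all 11423 tested genes the same test called 6.28% higher and 4.39% lower, over tested protein-coding genes 5.67% and 4.53%, and among 768 other protein-coding genes with a mean of at least 100 FPKM it called 17.1% higher. At an unadjusted p under 0.05 in limma, 48 members were higher and 0 lower, against 1789 and 1388 of all 11423 tested genes. The median log2 difference, Th0+Dopa minus Th0, was 0.40 for the members and 0.03 for all tested genes, on the log2(FPKM + 1) scale used throughout. By subunit, 17 of 50 large subunit genes rose (median 0.42) and 9 of 34 small subunit genes (median 0.39). In 64 members both Th0+Dopa libraries lay above both Th0 libraries, and in 2 members both lay below. Over all tested genes these shares were 31.4% and 25.6%.

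**Figure D1:**
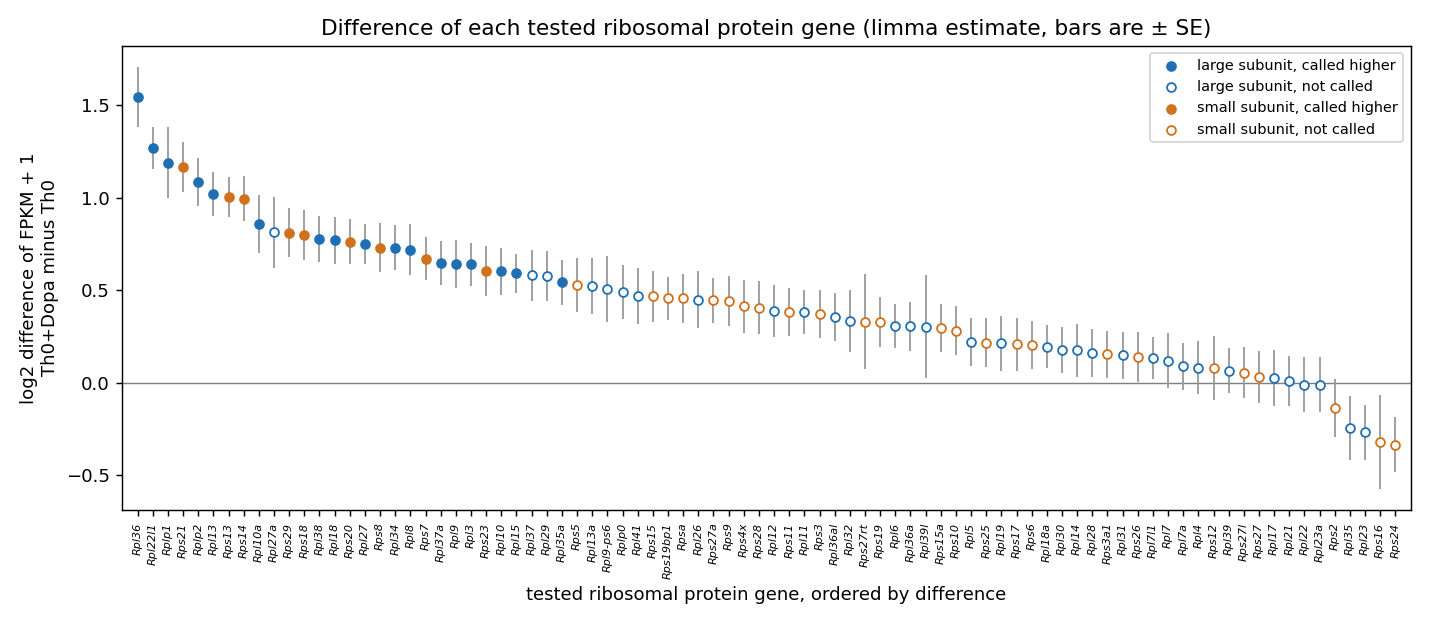
Log2 difference of FPKM + 1 (vertical axis, Th0+Dopa minus Th0) for the 84 tested ribosomal protein genes, ordered from high to low. Points are limma estimates and bars their SE. Filled points passed the test and colours give the subunit. The differences run from 1.55 for Rpl36 to -0.34 for Rps24, and genes of both subunits are found along the whole order.

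How large the share of higher genes is depends on the scaling, since the libraries differ in their summed FPKM: 880583 and 794873 in Th0+Dopa 2 and 3, against 687066 and 715110 in Th0 2 and 3. With every library brought to the same sum (common sum below), the median difference of all tested genes was -0.20, and 3.29% were called higher and 9.31% lower. The members then had a median of 0.14, with 27 called higher and 5 lower, namely Rps24, Rpl23, Rpl35, Rps2 and Rpl23a. Of the 84, 55 had a positive difference, against 77 as deposited. Of all 11423 tested genes, 3507 had a positive difference with the common sum, against 6008 as deposited. Relative to all tested genes the members' median was 0.37 higher as deposited and 0.34 higher with the common sum. Without the block, 6 members were called higher, against 256 of all tested genes higher and 240 lower. With eBayes without trend 0 members were called, against 106 of all tested genes higher and 150 lower. Each library was also left out in turn (3 libraries, no block, the lone library assumed to vary like the other group). The members' median difference was then 0.30 to 0.52. The 26 members called as deposited kept a positive difference there, which was fixed in advance. In each of these members both Th0+Dopa libraries lay above both Th0 libraries.

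Of the summed FPKM, ribosomal protein genes held 20.2% and 18.9% in Th0+Dopa 2 and 3, against 18.2% and 17.5% in Th0 2 and 3. Of the FPKM of protein-coding genes alone, they took 29.3% and 27.3% with dopamine and 24.2% and 23.2% without. The groups did not overlap by either measure, but an exact two-sided permutation test over 2 against 2 libraries cannot go below the 0.333 it gave for the share of the summed FPKM. In the same libraries, mitochondrial genes held 1.55% and 3.35% with dopamine and 5.64% and 8.41% without, and nuclear small and ribosomal RNA genes 26.0% and 20.6%, against 18.3% and 16.5%. Markers of other cells moved too. All 7 tested markers of granulocytes, basophils and mast cells were called lower (summed level 48.2 and 45.9 FPKM with dopamine, 437 and 582 FPKM without), as were 7 of 8 macrophage markers (19.4 and 22.3 FPKM, against 171 and 215 FPKM). The granulocyte gene Elane was listed at 0 in both Th0+Dopa libraries and had 0.931 and 0.744 FPKM in Th0. The summed level of 8 T cell markers was 1627 and 1538 FPKM with dopamine and 1661 and 1690.1 FPKM without, 2 being called higher and 1 lower. Of the B cell, CD8 T cell and red cell markers, 1 of 5, 1 of 2 and 0 of 4 reached the level for testing, and 0 were called in limma, also at an unadjusted p under 0.05. The red cell markers are all globin genes, whose mRNA the library kit removes, so their low values do not speak to red cells. The part of these shifts in the ribosomal protein result was not tested, and in bulk RNA fewer cells of a type and less RNA per cell cannot be told apart.

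Proteins of the ribosomal stalk, which recruits elongation factors to the large subunit, were among the genes with the largest differences. Rplp1 stood at 6149 and 3830.1 FPKM in the Th0+Dopa libraries, against 2181 and 2074 FPKM in the Th0 libraries. Rplp2 stood at 1718 and 1506 FPKM in the Th0+Dopa libraries, against 734 and 780.3 FPKM in the Th0 libraries. In both genes the 2 Th0 libraries were close together and both Th0+Dopa libraries lay well above them. The rise was 1.19 ± 0.19 (SE, n = 2 each) for Rplp1, or 2.28-fold (limma adjusted p = 0.02), and 1.09 ± 0.13 for Rplp2, or 2.12-fold (adjusted p = 0.00834). Rplp0, the protein on which the dimers of P1 and P2 sit, was measured at 4681 and 3613 FPKM in the Th0+Dopa libraries, against 3216 and 2675 FPKM in the Th0 libraries. Its difference of 0.49 ± 0.15 did not pass the test (limma adjusted p = 0.0966), although the groups did not overlap. Per length, Rplp1 mRNA was 131% and 106% of the Rplp0 level in Th0+Dopa 2 and 3, against 67.8% and 77.5% in Th0 2 and 3. Rpl12, at the base of the stalk, had a difference of 0.39 ± 0.14 (adjusted p = 0.148).

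Rpl36 of the large subunit (ENSMUSG00000057863, chromosome 17, 56613416 to 56614243, GRCm38) had the largest difference of the family. It measured 2023 and 1486 FPKM in the Th0+Dopa libraries, against 572 and 616 FPKM in the Th0 libraries, a rise of 1.55 ± 0.16 or 2.92-fold (limma adjusted p = 0.0061). Rpl36 has the highest GC content of the 91 genes, 60.8% over a transcript of 383 bases. With each table's differences corrected for GC content and transcript length, its rise was 0.92, against 1.41 for Rpl22l1, which then had the largest difference. The other large subunit genes among the 10 largest rises were Rpl13 at 1.02 ± 0.12 and Rpl10a at 0.86 ± 0.16. Rpl13 had 1804 and 1319 FPKM in the Th0+Dopa libraries, against 843 and 683 FPKM in the Th0 libraries, which is 2.03-fold by the fit. Rpl10a had 0.56 after the correction and then missed the threshold (limma adjusted p = 0.0539). Rpl27a had 1584 and 1225 FPKM in the Th0+Dopa libraries, against 698 and 900.2 FPKM in the Th0 libraries. Its difference was of similar size, uneven between the tables, and did not pass (0.81 ± 0.19, limma adjusted p = 0.0544). With the common sum Rpl27a passed (0.56, limma adjusted p = 0.0350), but not after the GC and length correction (0.59, limma adjusted p = 0.0947).

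Rpl22l1 (chromosome 3, 28805436 to 28807424), the near copy of Rpl22, was set apart from its parent gene. Rpl22 protein is needed for the development of alpha beta T cells in mice, where it also holds back the mRNA of Rpl22l1. Rpl22l1 had 217 and 179 FPKM in the Th0+Dopa libraries, against 81.6 and 80.3 FPKM in the Th0 libraries, and the 2 Th0 libraries were nearly equal. It rose by 1.27 ± 0.11 (limma adjusted p = 0.0037), the lowest adjusted p among the members. Rpl22 had 1739.9 and 1638 FPKM in the Th0+Dopa libraries, against 1538 and 1882 FPKM in the Th0 libraries, with overlapping groups and a difference of -0.01 ± 0.15 (adjusted p = 0.969). The Rpl22l1 level was thus 12.5% and 10.9% of the Rpl22 level in Th0+Dopa 2 and 3, against 5.30% and 4.27% in Th0 2 and 3. The log2 ratio of the 2 levels was higher with dopamine by 1.22 in the libraries numbered 2 and by 1.34 in those numbered 3. This ratio does not depend on library scaling, and it was not tested, since an exact permutation test over 4 libraries cannot go below 0.333.

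**Figure D2:**
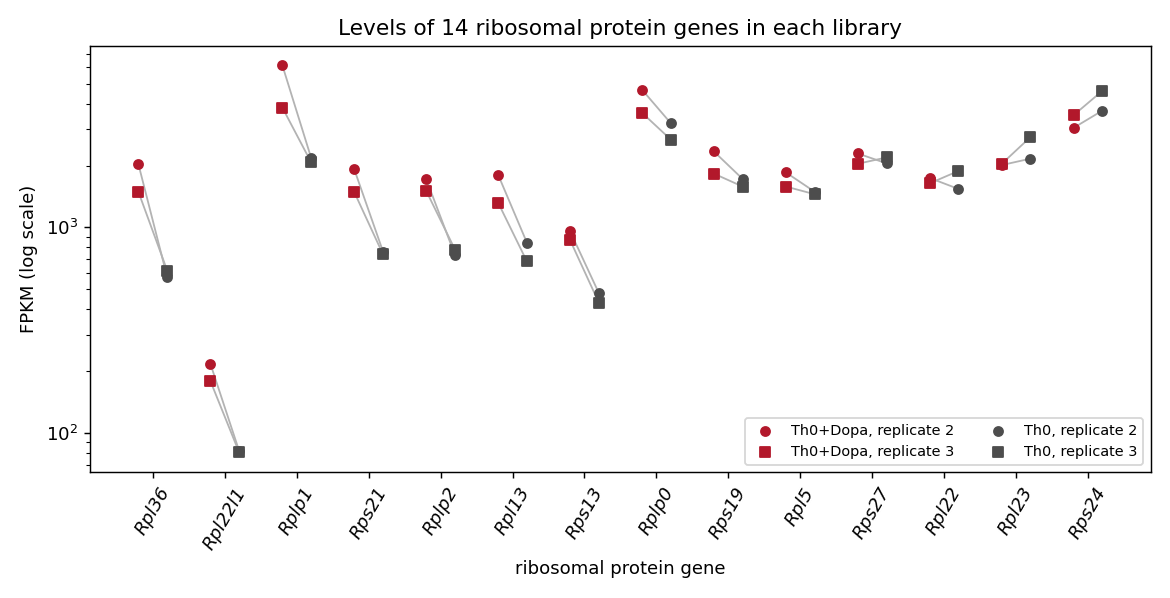
FPKM (log axis) of 14 ribosomal protein genes in each library, Th0+Dopa left of Th0 for each gene, with a line joining libraries of the same table. The 7 genes at the left have both Th0+Dopa libraries far above both Th0 libraries, Rpl22 and Rps27 overlap, and Rpl23 and Rps24 lie lower with dopamine in both tables.

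Small subunit genes among the 10 largest rises were Rps21, Rps13, Rps14 and Rps29. Rps21, a small protein on the solvent side of the subunit, had 1916 and 1485 FPKM in the Th0+Dopa libraries, against 762 and 739 FPKM in the Th0 libraries and rose by 1.17 ± 0.13 (limma adjusted p = 0.00755). Rps13 measured 959 and 868 FPKM in the Th0+Dopa libraries, against 479 and 430.4 FPKM in the Th0 libraries, again without overlap (1.00 ± 0.11, adjusted p = 0.00623). Rps14, whose loss of 1 copy in humans is known from the 5q- syndrome, rose by 1.00 ± 0.12, with 2359 and 1814 FPKM in the Th0+Dopa libraries, against 1211 and 888 FPKM in the Th0 libraries. Rps29 rose by 0.81 ± 0.13. Corrected for GC content and length, these 4 genes had 0.88, 1.02, 0.75 and 0.60, and each still passed. The remaining genes called higher had rises between 0.54 (Rpl35a) and 0.80 (Rps18), among them Rpl3, which lies next to the peptidyl transferase centre (0.64 ± 0.12, limma adjusted p = 0.0289), and Rpl10, which joins the large subunit late in its assembly (0.60 ± 0.13, adjusted p = 0.0402). Rpl15 and Rpl35a, at the lower edge, no longer passed with the common sum (adjusted p = 0.0577 and 0.0554).

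A second group of well known members had smaller differences that did not pass. Rpl5 and Rpl11 form a particle with 5S ribosomal RNA and bind Mdm2, the ligase of p53, when ribosome assembly fails. Rpl5 measured 1852 and 1580.3 FPKM in the Th0+Dopa libraries, against 1491 and 1450.3 FPKM in the Th0 libraries (0.22 ± 0.13, limma adjusted p = 0.329), and Rpl11 1417 and 1323 FPKM in the Th0+Dopa libraries, against 1054 and 1050.1 FPKM in the Th0 libraries (0.38 ± 0.12, adjusted p = 0.106). Rps6, the substrate of the S6 kinases, had 1151 and 1037 FPKM in the Th0+Dopa libraries, against 901 and 1002 FPKM in the Th0 libraries, a difference of 0.20 ± 0.13. Rps19, the gene most often mutated in Diamond-Blackfan anaemia in humans, had 0.33 ± 0.14. In Rpl5, Rpl11, Rps6 and Rps19 both Th0+Dopa libraries were above both Th0 libraries, by less than the test required. With the common sum the differences of Rpl5 and Rps6 were -0.037 and -0.054, so their direction follows the scaling. Rpsa, also known as the laminin receptor, had 0.46 ± 0.13, and Rps27a, made as a fusion with ubiquitin, had 0.45 ± 0.12. Rps27a and the X-linked Rps4x (0.41 ± 0.14) passed only after the GC and length correction (0.43 each, limma adjusted p = 0.0365 and 0.0377). Rpl41, the smallest ribosomal protein, had 0.47 ± 0.15. Rpl13a, known in human monocytes for silencing inflammatory mRNAs once it is released from the ribosome, had 0.52 ± 0.15. The limma adjusted p values of Rpl41 and Rpl13a were 0.116 and 0.0891. With the common sum Rpl13a was just under the threshold (0.27, limma adjusted p = 0.0499), but not after the GC and length correction (0.22, limma adjusted p = 0.162).

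At the other end, 7 tested members had a negative difference, and none passed with the values as deposited. Rps24, a small subunit protein with a long C-terminal helix and another Diamond-Blackfan gene in humans, measured 3049 and 3513 FPKM in the Th0+Dopa libraries, against 3699 and 4619 FPKM in the Th0 libraries (-0.34 ± 0.15, limma adjusted p = 0.207). Rpl23 measured 2009 and 2036 FPKM in the Th0+Dopa libraries, against 2160.1 and 2749.8 FPKM in the Th0 libraries (-0.27 ± 0.15, adjusted p = 0.296). These were the 2 members with both Th0+Dopa libraries below both Th0 libraries, and both were called lower with the common sum (-0.59 and -0.52, limma adjusted p = 0.00271 and 0.00655). Rpl35, near the exit of the peptide tunnel, had 1221 and 1028 FPKM in the Th0+Dopa libraries, against 1169 and 1510.0 FPKM in the Th0 libraries, slightly higher with dopamine in 1 table and lower in the other. It was called lower after the GC and length correction (-0.66, limma adjusted p = 0.0430). Rps16 went opposite ways in the 2 tables. It had 379 FPKM in Th0+Dopa 2, against 695 FPKM in Th0 2, and 938 FPKM in Th0+Dopa 3, against 799 FPKM in Th0 3. Rpl23, Rpl35, Rps2, Rps16 and Rpl23a were named after their values had been seen.

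The order of the members was similar in both tables, which share no library. Differences were positive in both tables for 68 members, negative in both for 2 and opposite for 14. Over all 11423 tested genes these counts were 4295, 3688 and 3330. Differences in the libraries numbered 2 were set against those in the libraries numbered 3. Over the 79 members with a mean of at least 100 FPKM, Pearson's r was 0.85 and Spearman's rho 0.92. Other genes of that level were not compared. Over all 84 tested members the values were 0.77 and 0.82, against 0.54 and 0.55 over all 11423 tested genes. These are descriptions across genes, which are not independent replicates and share each library's depth and base composition. The median difference was 0.48 in the libraries numbered 2 and 0.30 in those numbered 3, so the differences were smaller in the second table. In log2 level, libraries of the same treatment resembled each other most (r = 0.96 between the Th0+Dopa libraries and 0.98 between the Th0 libraries), and libraries of different treatments less (r = 0.85 to 0.95, the last between Th0 2 and Th0+Dopa 3). Across these 79 genes the difference was only weakly related to GC content (r = 0.23), transcript length on a log scale (r = -0.21) and mean level (r = -0.26). Over the tested protein-coding genes these values were 0.34 for GC content and -0.13 for length. After the GC and length correction the members' median was 0.24 against 0.01 for all tested genes, 26 were called higher and 1 lower, against 3.7% of tested genes in each direction, and 24 of the 26 members called as deposited passed again, all but Rpl10a and Rpl38.

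**Figure D3:**
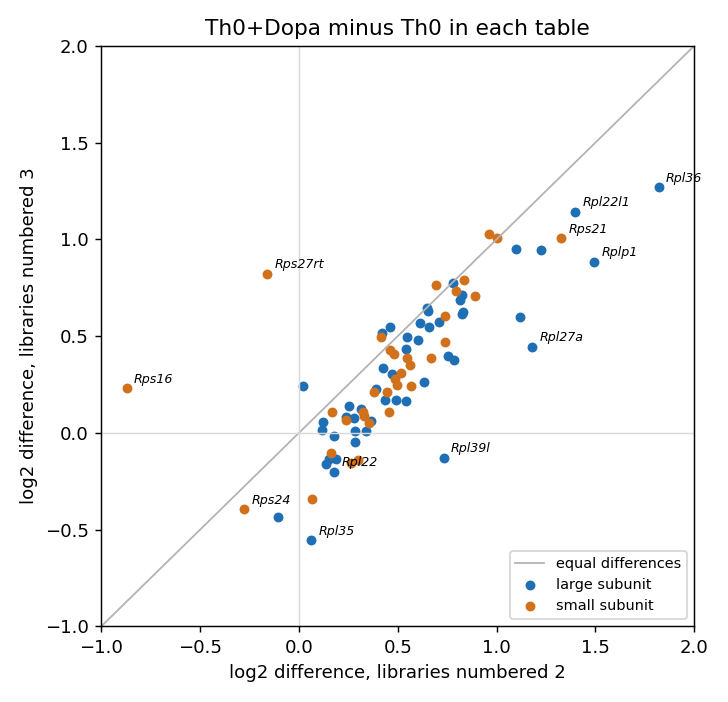
Log2 difference of FPKM + 1, Th0+Dopa minus Th0, of the 84 tested ribosomal protein genes in the libraries numbered 2 (horizontal axis) and in those numbered 3 (vertical axis). Each point is a gene, coloured by subunit, and the line marks equal differences. Most points follow a single rising band slightly below the line, while Rps16 and Rps27rt lie to the left of it.

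Levels within the family covered a wide range. Per length, Rpl32 had the highest mean level, with 5758 and 4806 FPKM in the Th0+Dopa libraries, against 4095 and 4269 FPKM in the Th0 libraries, followed by Rpl41, Rpl13a, Rps12 and Rps24. Among the 79 genes above 100 FPKM the highest mean was 34.0 times the lowest, that of Rpl22l1. Rps12 had 0.08 ± 0.17 and Rpl32 0.33 ± 0.17, neither past the test (limma adjusted p = 0.817 and 0.262). Rplp1 made up 3.46% and 2.54% of the family's FPKM in Th0+Dopa 2 and 3, against 1.74% and 1.66% in Th0 2 and 3. Rps24 made up 1.72% and 2.33% with dopamine, against 2.96% and 3.69% in Th0. These shares within the family do not depend on how a library is scaled.

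Among other near copies and relatives, some stood in a steady ratio to their parent gene and others did not. Rps27l, a p53 target, had 595 and 486 FPKM in the Th0+Dopa libraries, against 496 and 542 FPKM in the Th0 libraries, and its parent Rps27 2289.6 and 2040.0 FPKM in the Th0+Dopa libraries, against 2049 and 2189 FPKM in the Th0 libraries. Their differences were 0.05 ± 0.14 and 0.03 ± 0.14, and Rps27l stayed between 23.8% and 26.0% of the Rps27 level in the 4 libraries. Rpl36al had 0.35 ± 0.13 beside 0.30 ± 0.13 for Rpl36a, at 26.8% to 30.6% of its level. Rpl7l1, a nucleolar relative that is not part of the mature ribosome, had 73.4 and 72.0 FPKM in the Th0+Dopa libraries, against 72.4 and 60.7 FPKM in the Th0 libraries (0.13 ± 0.11), and Rpl7 0.12 ± 0.15. The groups overlapped in Rps27, Rps27l, Rpl7, Rpl7l1 and Rpl39, a protein of the exit tunnel (0.06 ± 0.12). Rpl39l, best known from testis, reached at most 5.50 FPKM and had 0.30 ± 0.28. It was at 0.311% and 0.317% of the Rpl39 level in Th0+Dopa 2 and 3, against 0.174% and 0.356% in Th0 2 and 3. Rps19bp1, a partner of Rps19 outside the ribosome, had 48.6 and 45.4 FPKM in the Th0+Dopa libraries, against 36.2 and 31.9 FPKM in the Th0 libraries (0.46 ± 0.11, limma adjusted p = 0.0624). Rps27rt and Rpl9-ps6 share nearly all their sequence with Rps27 and Rpl9, so their values of at most 19.3 and 9.08 FPKM are uncertain. Rps27rt was at 0.747% and 0.446% of the Rps27 level in Th0+Dopa 2 and 3, against 0.940% and 0.215% in Th0 2 and 3, so the ratio changed in opposite directions in the 2 tables. The 7 genes under the filter were the muscle gene Rpl3l, the testis gene Rpl10l, and Rpl10-ps3, Rpl36a-ps1, Rps12-ps3, Rpl9-ps1 and Rpl36-ps4. None of these exceeded 2.09 FPKM in any library, Rpl10l and Rpl36-ps4 were listed at 0 in all 4, and Rpl9-ps1 was the only one above 0 in all 4. Rpl24 was not analysed here.

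Ribosomal protein genes have many processed pseudogenes, and reads shared with them can be assigned either way. The tables listed 226 rows with a ribosomal protein symbol that the annotation calls pseudogenes, which together took 0.205% and 0.191% of the summed FPKM in Th0+Dopa 2 and 3, against 0.191% and 0.161% in Th0 2 and 3. Among the 79 that were tested, 9 were called higher and 1 lower, and the median was 0.28. With the common sum 3 were called higher and 4 lower (median 0.08), and after the GC and length correction 5 higher and 2 lower (median 0.06). Rps3a3 had the highest level of them, with 508 and 444 FPKM in the Th0+Dopa libraries, against 388 and 358 FPKM in the Th0 libraries. Rps13-ps1 had 191 and 179 FPKM in the Th0+Dopa libraries, against 97.3 and 78.6 FPKM in the Th0 libraries, a rise of 1.07 ± 0.11 (limma adjusted p = 0.00546) that is close to that of Rps13.

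Introns of these genes carry small nucleolar RNAs (snoRNAs), which guide modification of ribosomal RNA and are released from the spliced intron. The annotation placed 57 snoRNA genes inside 30 members on the same strand, of which 35 were listed at 0 in every library. Of the 12 that were tested and above 0 in every library, 8 were called higher and 0 lower in limma. At an unadjusted p under 0.05, 10 were higher and 1 lower, Snora64 inside Rps2, with 9.31 and 7.40 FPKM in the Th0+Dopa libraries, against 35.8 and 9.68 FPKM in the Th0 libraries (-1.09 ± 0.35, limma adjusted p = 0.109). Of all 22 tested, 9 were called higher as deposited, 7 with the common sum and 5 after the GC and length correction. Their median difference was 0.94, against 0.31 for their 9 host genes, and 8 of the 12 had a larger difference than the host in both tables. Snora7a, inside Rpl32, measured 530.2 and 396 FPKM with dopamine and 120.0 and 179 FPKM in Th0, a rise of 1.64 ± 0.23 (limma adjusted p = 0.0140), whereas Rpl32 itself had 0.33 ± 0.17. Snord15b, inside Rps3, measured 1677 and 1303 FPKM with dopamine, against 642 and 751 FPKM in Th0 (1.09 ± 0.17), beside 0.37 ± 0.13 for Rps3. FPKM of such short RNAs is imprecise, and nuclear small and ribosomal RNA genes as a whole took a larger share of the Th0+Dopa libraries.

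Fau and Rack1, ribosomal proteins whose symbols fall outside the rule, were higher in both tables. Fau, in which the small subunit protein is fused to a ubiquitin-like protein, had 1768 and 1342 FPKM in the Th0+Dopa libraries, against 937 and 943 FPKM in the Th0 libraries and rose by 0.71 ± 0.14 (limma adjusted p = 0.0384). After the GC and length correction Fau had 0.28 and did not pass (limma adjusted p = 0.136). Rack1, a scaffold on the small subunit, had 0.60 ± 0.14 (limma adjusted p = 0.0547). Mitochondrial ribosomal proteins, which build the separate ribosome of mitochondria, had a median of 0.27. Of 77 tested, 15 rose (19.5%) and 0 fell, with 1 lower at an unadjusted p under 0.05. Mrps14 had the largest rise, 0.97 ± 0.12, and Mrpl49 the lowest value, -0.43 ± 0.12 (limma adjusted p = 0.0887). With the common sum the median of the mitochondrial list was 0.02, with 2 higher and 1 lower, and after the GC and length correction it was 0.20, with 6 higher and 0 lower.

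Of 18 other mRNAs known for a 5′ terminal oligopyrimidine tract, 1 rose, the chaperonin subunit Cct4 at 0.60 ± 0.10 (limma adjusted p = 0.0228), and the median was 0.17. The elongation factors Eef1a1 and Eef2 had 0.43 ± 0.19 and 0.51 ± 0.12, and Vim (vimentin) -0.38 ± 0.10, without passing. With the common sum the median of this list was -0.09, and 0 were called higher and 3 lower, so that Cct4 did not pass (0.35, limma adjusted p = 0.0648). Vim was called lower there (-0.63) and after the GC and length correction (-0.47). Among 10 chaperones of ribosomal proteins (median 0.08), Grwd1, which escorts Rpl3, rose by 0.70 ± 0.12 (limma adjusted p = 0.0264). It did not pass with the common sum (0.45, limma adjusted p = 0.120) or after the GC and length correction (0.47, limma adjusted p = 0.0849). Pdcd2l had 0.81 ± 0.23, Heatr3 0.34 ± 0.13 and Aamp 0.23 ± 0.13, not past the test. Of 16 tested regulators (median -0.18), Eif4ebp1, a repressor of cap-dependent translation that mTOR inactivates, rose by 0.88 ± 0.11 and Mdm2 fell by 0.73 ± 0.11 (limma adjusted p = 0.00875 and 0.0168). Mtor itself had 0.80 ± 0.20 (adjusted p = 0.0579), Akt1s1, an inhibitory subunit of its complex, 0.60 ± 0.27, and Myc, a driver of ribosome synthesis, 0.04 ± 0.15.

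**Figure D4:**
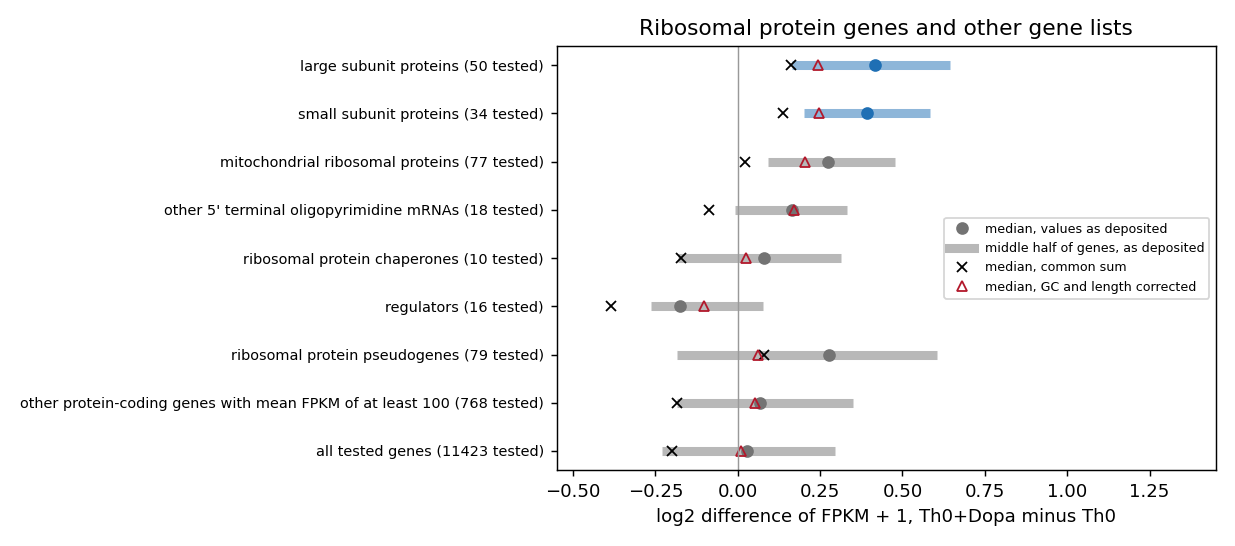
Log2 difference of FPKM + 1, Th0+Dopa minus Th0 (horizontal axis), for ribosomal protein genes of both subunits and for other gene lists. Circles are medians and bars run from the lower to the upper quartile of the tested genes, both for values as deposited, crosses are medians with the common sum, and triangles are medians after the GC and length correction. Of the lists drawn, those of the cytosolic ribosomal proteins have the highest medians under all 3 treatments of the values, at 0.42 and 0.39 as deposited.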

How the data were processed

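RNA was sequenced from 2 Th0+Dopa and 2 Th0 libraries. The RNA was purified on columns, treated with DNase and made into libraries with a stranded kit that removes ribosomal RNA and globin mRNA, per the labels' protocols. The authors deposited FPKM (fragments per kilobase, relative to mapped fragments) in 2 tables, each with 1 library per group. The submitters' processing notes name Trimmomatic 0.35, STAR 2.4.2, Cufflinks 2.2.1 and mm10. The sources used here do not give the annotation release, the handling of reads with several matches or the use of strand. Genes that share sequence or overlap are therefore uncertain.

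GENCODE M21 (GRCm38, the mm10 build) named 36423 of the 38282 IDs. Genes with a mean of at least 1 FPKM were tested, 11423 in all, with limma 3.58.1 in R 4.3.3 (lmFit, eBayes with trend) on log2(FPKM + 1), with the table as a block, since differences were taken only within a table, Benjamini-Hochberg adjustment over all tested genes and a threshold of 0.05. Fold changes on this scale understate the change of low genes. The fit leaves 1 residual degree of freedom, and the prior adds 4.70. Same-numbered libraries deviated together only weakly (r = 0.087), so the block stands for the tables. GC content and transcript length are means over a gene's transcripts, and 98.8% of tested genes had them. Low values of single-transcript genes lay near whole fragments (88.6% to 90.2% within 0.15). The value of 1 fragment was chosen to make this share as large as possible. The 30% that a fixed value would give is therefore not its chance level. By this estimate 1 fragment on a 1 kb transcript was worth 0.148 to 0.200 FPKM, and each member above 100 FPKM rested on at least 211 fragments per library.

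Named were the 10 largest calls in each direction with the same sign in both tables, the 5 highest and 5 lowest levels, members listed at 0, a set of members chosen for their roles, and up to 4 genes of each further list. The members and lists were chosen with earlier results of these data known. Promoter sequences are RefSeq's (GRCm38.p6).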

Additional observations from a re-analysis of the deposited data

How the results depend on the processing

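The count of members called higher was 26, and between 23 and 30 with a pseudocount of 0.1 or 5, a minimum of 5 FPKM, the 3 scalings and the GC and length correction. It was 8 with no filter on low values, 6 without the replicate block, 0 with eBayes without trend, and 0 to 0 with any library left out (limma adjusted p at least 0.0984 there). The count called lower was 0, but 5 with the common sum, 2 with the common sum without small RNA, ribosomal RNA and mitochondrial genes, and 1 with the correction made with the replicate block. The median difference of the members was 0.40, but 0.14 and 0.17 under these 2 scalings, 0.24 after the correction, and 0.30 to 0.52 with a library left out. The causes were not tested. The members' share of the summed FPKM differed by 1.70 percentage points, by 4.62 of protein-coding FPKM, by 2.76 without small RNA, ribosomal RNA and mitochondrial genes, by 1.69 without near copies, and by 1.09 to 2.31 with a library left out. Of the 12 named members called, 12 passed with a pseudocount of 0.1 and under the 3 scalings, and 11 with a pseudocount of 5 and with the correction. With no filter 7 passed, without the block 5 and without trend 0. The 26 called members kept their sign under the 3 scalings and the correction. In the other fits their sign could not change, because both Th0+Dopa libraries lay above both Th0 libraries in each of these members. Rps24 was called lower in both scalings to a common sum. With 2 libraries per group, small differences could not be resolved.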
